A study of Mus musculus with 12 samples.

Results

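The genotype by diet interaction asks how far the response of white adipose tissue to a high fat diet (HFD) differed between male mice carrying a knockout of Ahnak (KO) and wild-type mice (WT). It was computed for each gene as the HFD minus chow difference in KO minus the same difference in WT, so a positive value means that the KO response lay above the WT response. All 12 of the 12 arrays of the series enter it, 3 in each of 4 groups, and the labels alone set the groups. The groups were KO on HFD, KO on regular chow, WT on HFD and WT on regular chow. All animals were 18 weeks old, and the HFD, with 60% of fat, 20% of carbohydrate and 20% of protein, was given for 12 weeks to groups matched on weight. Expression was read on 1-colour Affymetrix whole-transcript arrays, 1 per sample, after biotin labelling of total RNA. The labels do not state the fat depot, the strain, how Ahnak was disrupted or the hour of collection. They number the replicates but do not say whether each came from its own animal. The p-values therefore cover the spread among these arrays alone, which may be technical.

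AHNAK is a very large scaffold protein under the plasma membrane that binds annexin A2 and S100A10 and has been tied to calcium channel and phospholipase C signalling. When white fat expands on a fat-rich diet, adipocytes enlarge, macrophages gather around dying adipocytes and take up their lipid, matrix is laid down, and the adipocyte's programmes for making fat and for burning branched-chain amino acids fall back. An interaction can come from a response that is smaller in KO, from one that runs the other way, or from a difference between the genotypes that is already there on chow, and the 4 group values of a gene tell these cases apart.

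The row for Ahnak lay at 9.58, 9.40 and 9.45 in KO on HFD and 9.31, 9.27 and 9.42 in KO on chow, against 10.27, 9.68 and 10.04 in WT on HFD and 9.94, 10.06 and 10.08 in WT on chow, all on the log2 scale. KO arrays were lower on both diets, yet their signal stayed well inside the range of the other genes, and where its probes lie relative to the disrupted part of the gene is not stated in the labels. The interaction of Ahnak was 0.17 ± 0.18 (SE of the fit) with a limma adjusted p of 0.697. Markers of adipocytes were bright in every group on a scale that ends at 14.2: Adipoq, the gene of adiponectin, averaged 13.29 in KO on HFD, 13.15 in KO on chow, 12.86 in WT on HFD and 13.13 in WT on chow. Arrays of the same group were spread on the leading principal component, most widely in WT on HFD. On the leading principal component, which held 58.1% of the variance, WT on HFD replicate 1 scored 26.4, while replicates 2 and 3 of that group scored 57.8 and 47.2. In KO on HFD replicate 1 scored -7.78, against 9.30 and 11.4 for replicates 2 and 3. In KO on chow replicate 2 scored -18.0, against -31.8 and -30.8 for replicates 1 and 3. WT on chow arrays scored -28.4 to -15.6. Leaving out WT on HFD replicate 1 changed the interaction counts below most, so results are given with and without it.

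**Figure D1:**
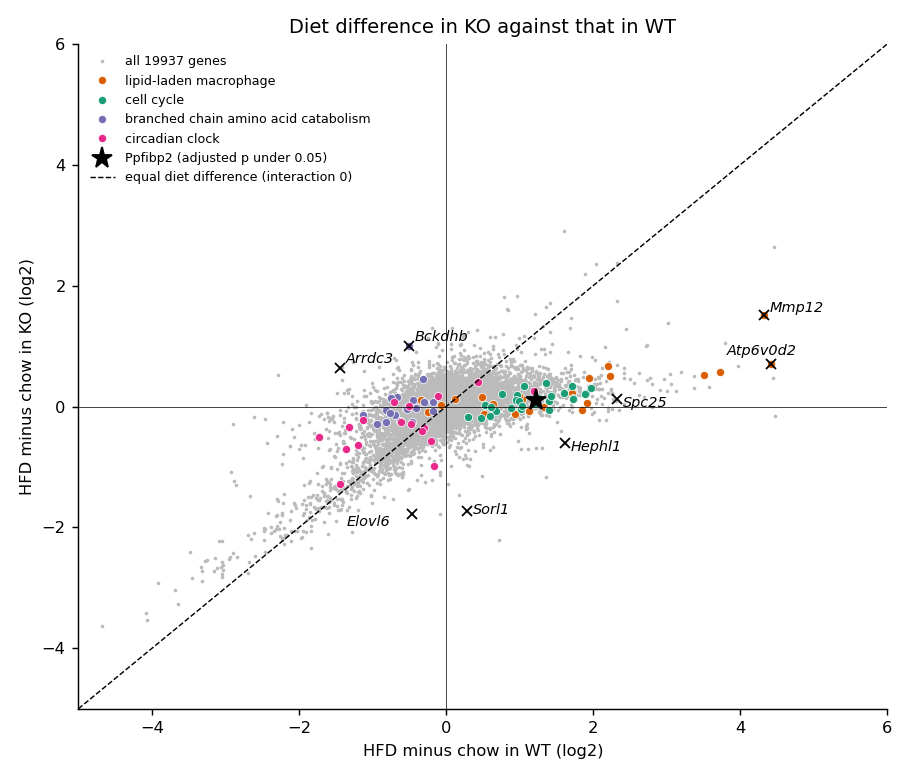
HFD minus chow difference in KO (y axis, log2) against the same difference in WT (x axis, log2), 1 dot per gene for 19937 genes in grey, with 4 gene lists in colour, Ppfibp2 as a star and 8 other genes as labelled crosses. Genes on the dashed diagonal have an interaction of 0. Cell cycle and lipid-laden macrophage genes have medians of 0.10 and 0.12 in KO, against 1.05 and 1.23 in WT. Mmp12 lies at 1.52 in KO and 4.32 in WT. Bckdhb and Arrdc3 lie above the diagonal, and Sorl1, Elovl6 and Hephl1 below it.

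Across the 19937 genes, 1 gene, or 0.00502%, passed the interaction test (limma, Benjamini-Hochberg adjusted p under 0.05 over all genes). It had a negative value, and 0 genes passed with a positive one. At an unadjusted p under 0.05 the count was 3496 genes, or 17.5%, of which 1799 were positive and 1697 negative, where 996.85 are expected if no gene differs. At an adjusted p under 0.10, 337 genes were counted. The median interaction over all genes was 0.0063 and the median SE of a gene's interaction was 0.14, while 132 genes had values over 1 and 362 genes had values under -1. Within the genotypes the HFD passed for far more genes in WT than in KO. In KO 559 genes (2.8%) rose and 705 (3.54%) fell on HFD, while in WT 2345 (11.8%) rose and 2457 (12.3%) fell. A gene that passed in WT alone is not thereby shown to respond differently, and the interaction test above is the test of that difference.

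The counts rested on WT on HFD replicate 1 more than on any other array left out. Without it 906 genes (4.54%) passed with a positive interaction and 1154 (5.79%) with a negative one. Leaving out any other array gave 0 to 17 positive and 0 to 3 negative calls. On the leading component WT on HFD replicate 1 scored nearest to the chow arrays of its group. Leaving it out can thus widen WT diet differences and narrow the spread of WT on HFD. Calls made without it are therefore no separate support. Leaving out genes with a mean below 5 on the log2 scale, so that 14628 genes were tested, gave 40 positive and 18 negative calls, and weighting the arrays by their spread gave 1395 and 1424. In that weighting WT on HFD replicate 3 received a weight of 19.99, against 0.38 for each of the other arrays of its group. The weighted WT on HFD values therefore came mostly from 1 array, and the weighted counts are not a reliable alternative. As a description that needs no model, the 9 HFD minus chow differences between single arrays of KO lay wholly above the 9 of WT for 968 genes (4.86%) and wholly below them for 788 (3.95%). For 220 genes (1.10%) all 9 differences ran one way in KO and all 9 the other way in WT.

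Ppfibp2, the gene of liprin-beta 2, a scaffold protein of the liprin family that binds other liprins, was the gene that passed. Its arrays read 6.87, 6.94 and 7.12 in KO on HFD and 6.93, 6.80 and 6.88 in KO on chow, against 7.99, 8.11 and 8.16 in WT on HFD and 6.90, 6.89 and 6.80 in WT on chow. Each of the 3 arrays of WT on HFD was above each of the other 9, among which KO on HFD overlapped both chow groups. In WT Ppfibp2 rose on HFD by 1.22 (adjusted p = 7.4e-05), and in KO the difference was 0.10 (adjusted p = 0.489). KO minus WT was -1.11 on HFD and 0.0069 on chow. The interaction was -1.12 ± 0.11 (limma adjusted p = 0.014), and without WT on HFD replicate 1 its adjusted p was 0.000468. The call was lost when KO on chow replicate 1, WT on HFD replicate 2 or 3, or WT on chow replicate 1 or 3 was left out, with adjusted p between 0.0662 and 0.0834 and values between -1.14 and -1.08.

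The next 48 genes shared an adjusted p of 0.0552, just outside the threshold. The 10 positive and 10 negative genes with the smallest p, Ppfibp2 among them, are described next. These genes were picked for a small p, so it is no finding that the KO and WT differences did not overlap in 20 of the 20. Without WT on HFD replicate 1, all 20 passed, beside 4.54% of all genes as positive and 5.79% as negative. In WT 10 of the 10 positive genes fell on HFD and 9 of the 10 negative genes rose. In KO 5 of the positive genes rose, 1 of the negative genes rose and 1 fell. Over all genes 11.8% rose and 12.3% fell in WT, against 2.8% and 3.54% in KO. The choice by p favours these counts as well, so they are no separate finding. The sign of the KO minus WT difference turned between chow and HFD in 16 of the 20. That count is favoured by the same choice, since the interaction is also the KO minus WT difference on HFD minus that on chow. On chow no KO minus WT difference of the 20 genes passed (lowest limma adjusted p 0.319), so the sign there is uncertain.

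Among the genes with a negative interaction, several encode matrix or secreted proteins. Col12a1, a fibril-associated collagen, read 6.61, 6.85 and 6.79 in KO on HFD and 5.93, 5.97 and 5.89 in KO on chow, against 7.64, 7.92 and 8.13 in WT on HFD and 6.06, 5.81 and 5.85 in WT on chow. It rose on HFD in both genotypes, by 0.82 in KO (adjusted p = 0.0092) and by 1.99 in WT (adjusted p = 6.0e-05), and KO arrays on HFD lay between both chow groups and WT on HFD. The interaction was -1.17 ± 0.17. Col6a3, a chain of collagen VI and the source of endotrophin, had an interaction of -1.37 ± 0.21, with an HFD difference of 0.22 in KO and 1.59 in WT. F10, coagulation factor X, had an interaction of -1.45 ± 0.21, from 0.06 in KO and 1.51 in WT. Angptl1, an angiopoietin-like secreted protein, had -1.04 ± 0.16, from -0.11 and 0.93 in the same order.

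Hephl1, a ferroxidase of the hephaestin family, had the most negative value of the 10, -2.23 ± 0.33. Its arrays read 4.47, 5.14 and 5.07 in KO on HFD and 5.38, 5.83 and 5.30 in KO on chow, against 6.47, 6.86 and 7.31 in WT on HFD and 5.10, 5.47 and 5.23 in WT on chow. Each KO array on HFD was below each KO array on chow, whereas the WT arrays on HFD were above every WT array on chow. The KO difference of -0.61 did not pass (limma adjusted p = 0.144), while the WT rise of 1.62 did (adjusted p = 0.00137). The KO on HFD mean of 4.89 is low on this scale, and signal over background could not be assessed. Spc25, a kinetochore protein needed to part chromosomes, had an interaction of -2.21 ± 0.38, with 0.12 in KO and 2.33 in WT. Traf5 and Tnfrsf21, an adaptor and a receptor of the tumour necrosis factor receptor family, had interactions of -1.15 ± 0.19 and -1.06 ± 0.18.

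Sorl1 differed from these in the group that moved. It encodes a sorting receptor of the endosome and Golgi that is known to carry the insulin receptor in adipocytes. Its arrays read 6.91, 7.38 and 7.24 in KO on HFD and 9.05, 9.27 and 8.41 in KO on chow, against 8.15, 7.97 and 8.38 in WT on HFD and 8.23, 7.94 and 7.48 in WT on chow. The KO arrays were the highest on chow and the lowest on HFD, with KO minus WT at -0.99 on HFD and 1.03 on chow. On HFD it fell by 1.73 in KO (adjusted p = 0.00705), while in WT the difference was 0.28 (adjusted p = 0.439). The interaction was -2.02 ± 0.33 with an adjusted p of 0.0552, and 0.00637 without WT on HFD replicate 1.

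Among the genes with a positive interaction Arrdc3, an alpha-arrestin that takes part in the turnover of beta-adrenergic receptors, had the highest value of the 10. Its arrays read 10.28, 10.34 and 10.18 in KO on HFD and 9.36, 9.43 and 10.09 in KO on chow, against 9.65, 9.42 and 9.15 in WT on HFD and 10.81, 10.53 and 11.19 in WT on chow. The groups crossed: KO minus WT was 0.86 on HFD and -1.22 on chow (adjusted p = 0.0211 and 0.319). On HFD it differed by 0.64 in KO (adjusted p = 0.092) and fell by 1.44 in WT (adjusted p = 0.00142), which gave an interaction of 2.08 ± 0.29.

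Bckdhb, a subunit of the mitochondrial complex that commits branched-chain amino acids to breakdown, read 10.94, 10.54 and 11.02 in KO on HFD and 9.78, 10.03 and 9.69 in KO on chow, against 9.55, 8.96 and 9.25 in WT on HFD and 9.75, 9.67 and 9.85 in WT on chow. It rose on HFD in KO by 0.999 (adjusted p = 0.0124) and fell by 0.50 in WT (adjusted p = 0.0406). The interaction was 1.50 ± 0.23 with an adjusted p of 0.0552. Each KO array on HFD was above each KO array on chow, and each WT array on HFD was below each WT array on chow.

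Tef, a PAR bZIP transcription factor that is an output of the circadian clock, read 9.32, 9.22 and 9.15 in KO on HFD and 9.54, 9.70 and 9.49 in KO on chow, against 8.50, 8.05 and 8.36 in WT on HFD and 9.49, 9.66 and 9.72 in WT on chow. It differed by -0.35 in KO and fell by 1.32 in WT, an interaction of 0.97 ± 0.16. Sox7, a transcription factor of endothelial cells, had an interaction of 1.24 ± 0.19, from 0.27 in KO and -0.97 in WT. Ddx17, an RNA helicase, and Ccnl2, a cyclin that works in splicing, had interactions of 0.70 ± 0.10 and 0.92 ± 0.15. Tiparp, an ADP-ribosyltransferase induced by the aryl hydrocarbon receptor, had 0.84 ± 0.14. Gstt2 and Sult5a1, a glutathione transferase and a member of the sulfotransferase family, had 1.06 ± 0.17 and 0.63 ± 0.10, and Zbtb5, a zinc finger protein, had 0.61 ± 0.10.

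**Figure D2:**
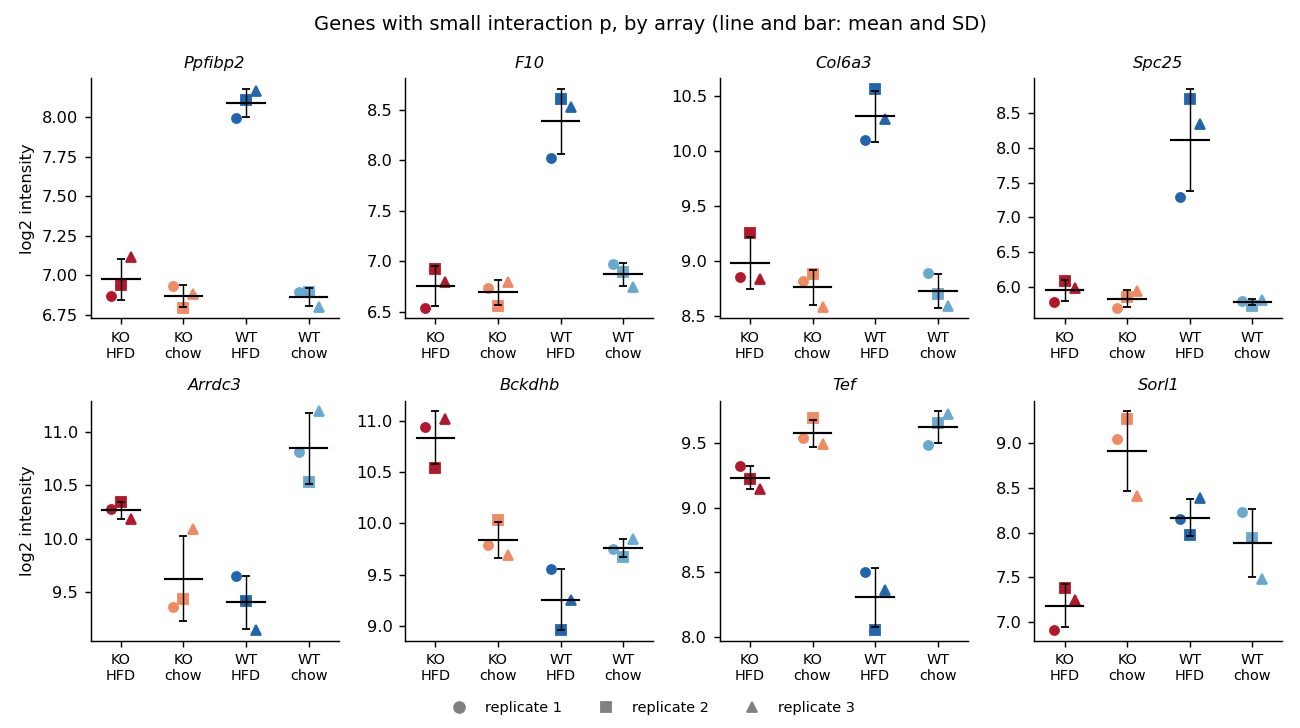
Log2 intensity (y axis, a separate range in each panel) of 8 genes on each array, for KO on HFD, KO on chow, WT on HFD and WT on chow from left to right. Symbols are replicates, lines are means and bars are SD (n = 3). Ppfibp2, F10, Col6a3 and Spc25 are high in WT on HFD, Arrdc3 crosses between diets, Bckdhb is high in KO on HFD, Tef is low in WT on HFD, and Sorl1 is high in KO on chow and low in KO on HFD.

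The genes were next read by pathway and by cell type. The 37 lists hold 752 entries, of which 690 were measured, and 0 of the lists had a member with a passing interaction, since Ppfibp2 is in none of them. With a single array left out, list members passed only when it was WT on HFD replicate 1. Some genes are entered in several lists, so counts of such lists are not separate results. Ctss, for example, is in the macrophage, class II and lysosome lists, and Plin1 in those of adipocyte identity, triglyceride synthesis and lipolysis. The median interaction was negative in 17 lists and positive in 20, beside 0.0063 over all genes. In whole tissue, fewer cells of a type and less RNA per cell cannot be told apart, and this holds for each of the groups of genes below.

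**Figure D3:**
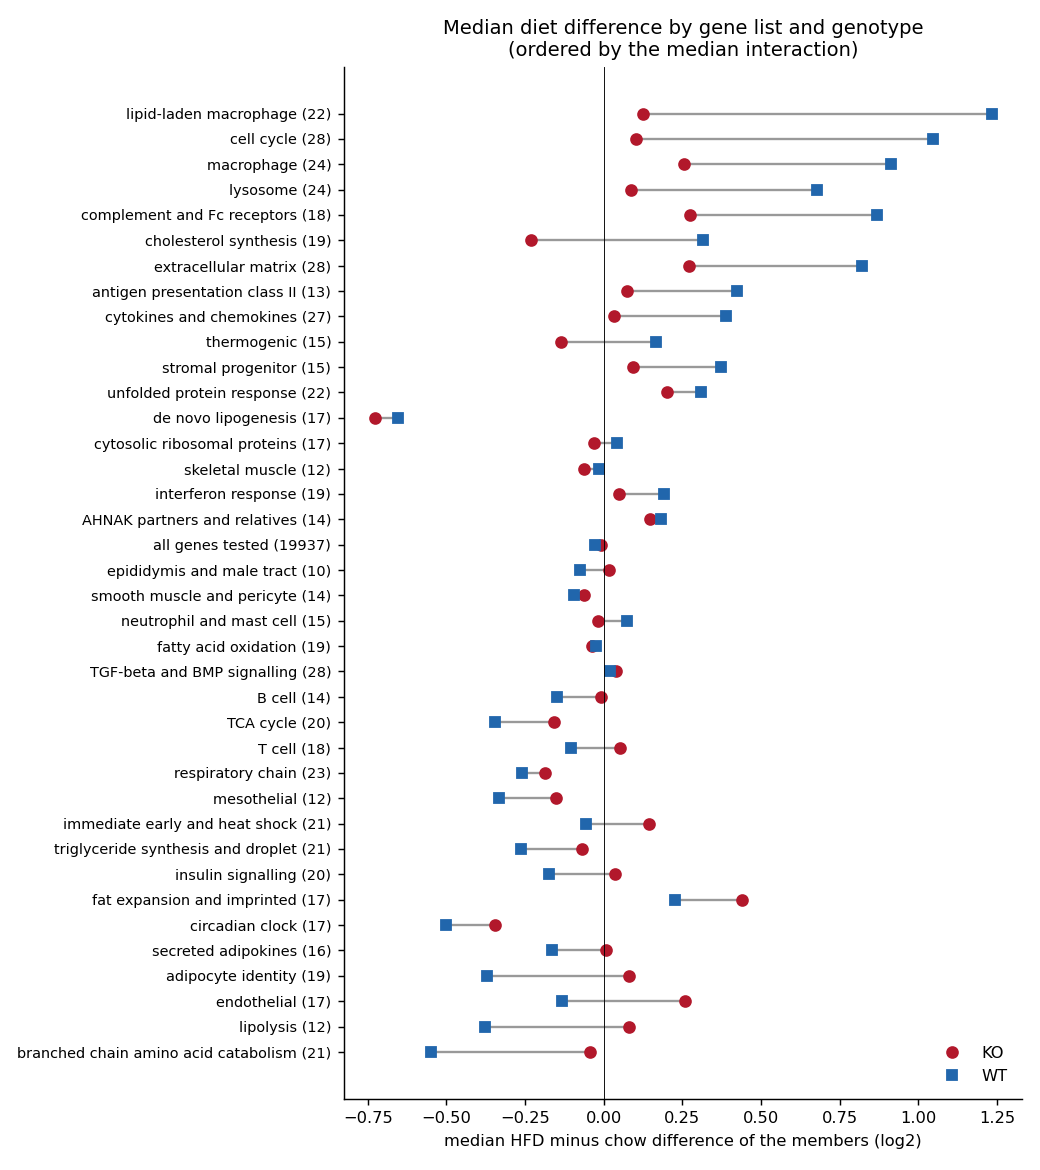
Median HFD minus chow difference (x axis, log2) over the measured members of each gene list (their number in parentheses), a circle for KO and a square for WT, ordered by the median interaction. Lipid-laden macrophage, cell cycle and macrophage genes have KO medians of 0.12, 0.10 and 0.26, against WT medians of 1.23, 1.05 and 0.91, and branched-chain amino acid catabolism has -0.043 in KO and -0.55 in WT.

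Macrophage genes passed the diet test in WT and not in KO, while the test of that difference passed for none with all arrays. Of 24 macrophage markers, 0 rose and 0 fell on HFD in KO, against 18 and 1 in WT. Over all genes 2.8% rose and 3.54% fell in KO, against 11.8% and 12.3% in WT. The median HFD difference was 0.26 in KO and 0.91 in WT. Interactions were negative for 20 of the 24, with a median of -0.77 and 0 passing, while 1 positive and 15 negative had an unadjusted p under 0.05, beside 17.5% of all genes in either direction. Without WT on HFD replicate 1, 17 passed as negative and 1 as positive, beside 5.79% and 4.54% of all genes. None passed when any other array was left out, and the median was -0.62 without WT on HFD replicate 2. The mean of the 24 markers was 8.91, 8.85 and 8.94 in KO on HFD and 8.82, 8.53 and 8.60 in KO on chow, against 9.57, 10.44 and 10.08 in WT on HFD and 9.05, 8.76 and 8.91 in WT on chow. WT on HFD replicate 1 had the lowest of its group, and still lay above all KO arrays.

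Itgax, the integrin CD11c of lipid-associated macrophages, read 6.20, 6.60 and 6.99 in KO on HFD and 6.33, 5.89 and 5.83 in KO on chow, against 8.96, 11.31 and 10.61 in WT on HFD and 6.57, 6.38 and 6.74 in WT on chow. All 3 arrays of WT on HFD were above the other 9, and replicate 1 was the lowest of them. The interaction was -3.15 ± 0.64 (adjusted p = 0.0815). Ctss, a macrophage protease that trims the class II invariant chain, had -1.39 ± 0.33, and Itgam, the integrin CD11b, had -1.16 ± 0.28. Cx3cr1, the fractalkine receptor, had an HFD difference of -0.36 in KO and 0.29 in WT, and neither passed. The 4 markers with a positive interaction were Timd4, a receptor for phosphatidylserine, at 0.83 ± 0.36, Cd163, the receptor for haemoglobin bound to haptoglobin, at 0.66 ± 0.31, Lyve1, a hyaluronan receptor, at 0.58 ± 0.51, and Cd86, a costimulatory ligand, at 0.054 ± 0.18. None of the 4 passed.

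The genes that macrophages switch on when they load lipid had the most negative median of the 37 lists. Of 22 measured, 0 rose and 0 fell on HFD in KO, against 18 and 1 in WT, beside 11.8% and 12.3% of all genes in WT. Over all genes 2.8% rose and 3.54% fell in KO, so few of 22 would pass there at those shares. Without WT on HFD replicate 1, 18 passed as negative and 1 as positive, beside 5.79% and 4.54% of all genes. None passed when any other array was left out, and the median was -0.98 without WT on HFD replicate 2. With all arrays 0 passed, 1 positive and 16 negative had an unadjusted p under 0.05, beside 17.5% of all genes in either direction, and the median interaction was -1.27. Atp6v0d2, a subunit of the proton pump that acidifies lysosomes, read 6.03, 5.87 and 6.61 in KO on HFD and 6.27, 5.03 and 5.08 in KO on chow, against 9.14, 12.05 and 11.43 in WT on HFD and 7.39, 5.58 and 6.40 in WT on chow. Its interaction of -3.71 had an SE of 0.96, and its WT on HFD arrays were spread widely. Gpnmb, a glycoprotein of lipid-filled phagocytes, had -2.98 ± 0.71, Mmp12, the macrophage elastase, -2.80 ± 0.66, and Lgals3, galectin 3, -1.85 ± 0.42. On HFD Mmp12 differed by 1.52 in KO (limma adjusted p = 0.0787) and rose by 4.32 in WT. The list mean was 9.85, 9.91 and 10.05 in KO on HFD and 9.76, 9.66 and 9.63 in KO on chow. It was 10.75, 11.98 and 11.58 in WT on HFD and 10.08, 9.75 and 9.80 in WT on chow. Cd36, Lpl, Apoe and Acp5 of the same list, the first 3 also made by adipocytes, had values between 0.0064 and 0.45. Complement and Fc receptor genes had a median of -0.61, with Itgb2, the beta chain of the leukocyte integrins, at -1.71 ± 0.37 and Fcer1g, the signalling chain of Fc receptors, at -1.22 ± 0.35. C2, a protease of the classical pathway, ran the other way at 1.38 ± 0.38.

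Antigen presentation by class II molecules had a median of -0.30 over 13 genes, and cytokines and chemokines one of -0.24 over 27, of which 20 were negative. Saa3, an acute phase protein of inflamed fat, had -2.07 ± 0.52. The monocyte attractants Ccl2, Ccl7 and Ccl12 had -1.31 ± 0.35, -0.998 ± 0.29 and 1.11 ± 0.33. Lymphocyte markers had medians near that of all genes: 0.13 over 18 T cell genes and 0.10 over 14 B cell genes. Of the B cell genes 9 were positive and 5 negative, with Cd22 at -1.12 ± 0.22 and Blnk at -1.99 ± 0.64. The T cell median ran from -0.038 to 0.22 as single arrays were left out, and those of class II and of cytokines from -0.39 to -0.18 and from -0.44 to -0.14. Of the 18 T cell genes 12 were positive and 6 negative. Among them Il7r, the interleukin 7 receptor, stood at -2.87 ± 0.79, the lowest of the list. Cd3d, Cd3e and Cd3g, chains of the T cell receptor complex, stood at 0.06, 0.06 and 0.89 ± 0.43, the last being the highest. Cd4 had 0.44 ± 0.16 and Icos 0.31 ± 0.15.

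Lysosomal genes were negative without exception among the 24 measured, at a median of -0.70. In KO 0 of the 24 rose on HFD and 0 fell, and in WT 20 rose and 0 fell, beside 11.8% and 12.3% of all genes in WT. Over all genes 2.8% rose and 3.54% fell in KO, so few of 24 would pass there at those shares. At an unadjusted p under 0.05 there were 20, beside 17.5% of all genes in either direction. The KO differences lay wholly below those of WT for 12 of 24, beside 3.95% of all genes. None passed with all arrays, and 20 passed as negative without WT on HFD replicate 1, beside 5.79% of all genes. None passed when any other array was left out, and the median was -0.59 without WT on HFD replicate 2. Atp6v1b2, a subunit of the proton pump, had -0.94 ± 0.22, and Ctsz, a cathepsin with carboxypeptidase activity, -0.76 ± 0.19. Ctsd, the aspartic protease cathepsin D, had -0.64 ± 0.18. Many lysosomal genes are switched on by TFEB and its relatives through the CLEAR element. Its core, TCACGTGA, which reads the same on both strands and contains the E-box CACGTG, was found in the promoters of 5 of the 19 lysosomal genes with a promoter in the RefSeq table (26.3%), Ctsd among them, and in 238 of 15613 genes overall (1.52%). The promoter of Ctsd is shown because it carries this core: 300 bases of RefSeq assembly GRCm38.p6, chr7:142387778-142388077, minus strand, written 5′ to 3′ with the core in capitals.
Ctsd: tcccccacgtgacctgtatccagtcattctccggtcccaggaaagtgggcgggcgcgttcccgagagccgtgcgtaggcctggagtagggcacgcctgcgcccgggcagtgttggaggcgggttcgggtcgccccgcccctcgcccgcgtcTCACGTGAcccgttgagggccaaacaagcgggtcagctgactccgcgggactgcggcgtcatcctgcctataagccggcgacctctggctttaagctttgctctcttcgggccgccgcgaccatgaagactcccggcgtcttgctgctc

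Cell cycle genes were negative for all 28 of the 28 measured. The median interaction was -0.99, from a median HFD difference of 0.10 in KO and 1.05 in WT. In KO 0 rose on HFD and 0 fell, against 25 and 0 in WT, where 11.8% of all genes rose. Over all genes 2.8% rose and 3.54% fell in KO, so few of 28 would pass there at those shares. At an unadjusted p under 0.05 there were 26, beside 17.5% of all genes in either direction. The KO differences lay wholly below those of WT for 19 of 28, beside 3.95% of all genes. None passed with all arrays, and 24 passed as negative without WT on HFD replicate 1, beside 5.79% of all genes. None passed when any other array was left out, and the median was -0.77 without WT on HFD replicate 2. The mean level was 6.11, 6.25 and 6.21 in KO on HFD and 6.07, 6.22 and 6.01 in KO on chow, against 6.70, 7.70 and 7.28 in WT on HFD and 6.20, 6.06 and 6.02 in WT on chow. These genes and the macrophage markers were high on the same arrays, and the part that macrophages had in the cell cycle values was not tested.

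Aurkb, the kinase that corrects chromosome attachment, read 6.52, 6.70 and 6.58 in KO on HFD and 6.67, 6.71 and 6.56 in KO on chow, against 7.28, 7.95 and 7.58 in WT on HFD and 6.72, 6.57 and 6.47 in WT on chow. It had an interaction of -1.06 ± 0.20 (adjusted p = 0.0619), and the KO arrays on HFD overlapped the KO arrays on chow. Kif11, the motor that pushes spindle poles apart, read 5.29, 5.49 and 5.43 in KO on HFD and 5.30, 5.35 and 5.11 in KO on chow, against 6.41, 7.61 and 7.04 in WT on HFD and 5.39, 5.21 and 5.27 in WT on chow, an interaction of -1.58 ± 0.31. Top2a, the topoisomerase that untangles chromosomes, had -1.66 ± 0.37, and Tpx2, a spindle assembly factor, -1.60 ± 0.37. Mki67, the source of the Ki-67 antigen, had -1.38 ± 0.34, while Tyms and Cdc20, a nucleotide synthesis enzyme and an activator of mitotic exit, had the values nearest 0 of the list, -0.48 and -0.48.

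Promoters of mitotic genes are known for a CHR element, TTTGAA, bound by the DREAM and MuvB complexes, and for CCAAT boxes bound by NF-Y. On either strand, TTTGAA was present in 13 of the 23 cell cycle genes with a promoter in the table (56.5%) and in 2698 of 15613 genes (17.3%), and CCAAT in 19 of 23 (82.6%) and in 6509 genes (41.7%). The promoters of Kif11 (chr19:37376132-37376431, plus strand) and Top2a (chr11:99024140-99024439, minus strand) of GRCm38.p6 are shown because both genes are among the 4 with the smallest p in the list and hold both motifs. Capitals mark TTTGAA or CCAAT as found on either strand, so that TTCAAA and ATTGG are the same motifs read from the opposite strand.
Kif11: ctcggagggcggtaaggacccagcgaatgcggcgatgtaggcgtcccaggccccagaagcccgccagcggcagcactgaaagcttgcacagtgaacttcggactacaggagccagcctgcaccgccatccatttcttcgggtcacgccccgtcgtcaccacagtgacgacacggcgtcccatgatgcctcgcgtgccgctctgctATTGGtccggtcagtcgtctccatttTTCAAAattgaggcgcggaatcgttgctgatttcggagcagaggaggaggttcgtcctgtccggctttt
Top2a: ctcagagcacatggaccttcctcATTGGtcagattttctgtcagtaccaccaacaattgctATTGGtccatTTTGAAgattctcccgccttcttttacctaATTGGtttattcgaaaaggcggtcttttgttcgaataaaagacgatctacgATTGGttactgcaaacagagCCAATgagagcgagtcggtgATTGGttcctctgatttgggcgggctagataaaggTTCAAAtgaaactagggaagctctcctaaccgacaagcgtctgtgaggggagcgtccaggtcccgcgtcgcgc

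Matrix genes had a median interaction of -0.51 over 28 genes, of which 23 were negative. In KO 4 rose on HFD and 0 fell, and in WT 21 rose and 0 fell, where 2.8% of all genes rose in KO and 11.8% in WT. Without WT on HFD replicate 1, 9 passed as negative and 1 as positive, beside 5.79% and 4.54% of all genes. None passed when any other array was left out, and the median was -0.43 without WT on HFD replicate 2. Besides Col12a1 and Col6a3, Col5a1, a chain that nucleates collagen fibrils, had -0.50 ± 0.14, and Col1a1, a chain of the main fibrillar collagen, -0.98 ± 0.26. Tgfb1, the growth factor that drives matrix synthesis, had -0.79 ± 0.23. Bmp2 and Bmp4, which steer precursors towards bone and fat, had 0.89 ± 0.28 and 0.81 ± 0.27, and Bmp2 differed by 0.96 in KO and 0.067 in WT.

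**Figure D4:**
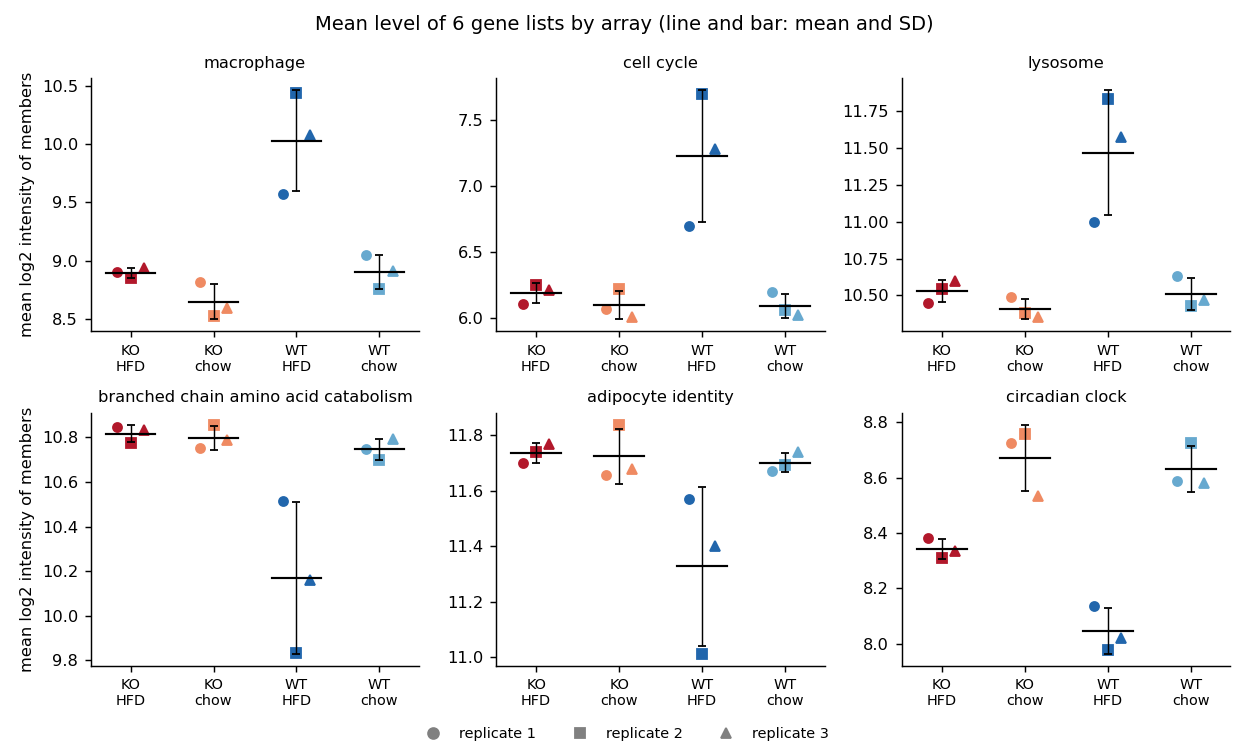
Mean log2 intensity over the members of 6 gene lists (y axis, a separate range in each panel) on each array, for KO on HFD, KO on chow, WT on HFD and WT on chow from left to right. Symbols are replicates, lines are means and bars are SD (n = 3). Of the 3 WT on HFD arrays, replicate 1 lies nearest to the chow arrays in all 6 panels.

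Catabolism of branched-chain amino acids, which adipocytes use as fuel and as a source of carbon for fat, had interactions of the other sign. All 21 of the 21 measured genes had positive interactions, with a median of 0.56. In KO 1 rose on HFD, Bckdhb, and 0 fell, and in WT 0 rose and 16 fell, where 12.3% of all genes fell. Over all genes 2.8% rose and 3.54% fell in KO, so few of 21 would pass there at those shares. At an unadjusted p under 0.05 there were 15, beside 17.5% of all genes in either direction. The KO differences lay wholly above those of WT for 9 of 21, beside 4.86% of all genes. None passed with all arrays, while 16 passed as positive without WT on HFD replicate 1, beside 4.54% of all genes. None passed when any other array was left out, and the median was 0.40 without WT on HFD replicate 2. Mccc2, a subunit of the leucine pathway's carboxylase, read 10.15, 10.10 and 10.11 in KO on HFD and 9.94, 10.05 and 9.94 in KO on chow, against 9.66, 8.83 and 9.29 in WT on HFD and 10.11, 9.98 and 9.96 in WT on chow. It differed by 0.14 in KO and -0.75 in WT, an interaction of 0.90 ± 0.22. Acad8, a dehydrogenase of the valine pathway, had 0.52 ± 0.13, and Ppm1k, the phosphatase that activates the dehydrogenase complex, 0.77 ± 0.20. The list mean was 10.84, 10.77 and 10.83 in KO on HFD and 10.75, 10.86 and 10.79 in KO on chow, against 10.51, 9.83 and 10.16 in WT on HFD and 10.75, 10.70 and 10.79 in WT on chow.

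Other adipocyte programmes leaned the same way by less. Genes of adipocyte identity had a median of 0.32 over 19, with 17 positive, and without WT on HFD replicate 1, 8 of them passed as positive, beside 4.54% of all genes. The median was 0.20 without WT on HFD replicate 2. Plin1 and Plin4, coat proteins of the lipid droplet, had 0.54 ± 0.14 and 0.94 ± 0.27, Cebpa, a transcription factor of fat differentiation, 0.59 ± 0.18, and Adig, adipogenin, 0.61 ± 0.19. Lipolysis genes had a median of 0.42 over 12, or 0.26 without WT on HFD replicate 2, with Lipe, the hormone-sensitive lipase, at 0.52 ± 0.17, and Pde3b, the phosphodiesterase through which insulin restrains lipolysis, at 0.93 ± 0.19. Pck1, which makes glycerol phosphate for the re-esterification of fatty acids, read 12.997, 12.93 and 13.08 in KO on HFD and 12.62, 12.73 and 12.76 in KO on chow, against 12.12, 10.79 and 11.07 in WT on HFD and 12.55, 12.38 and 13.01 in WT on chow, an interaction of 1.62 ± 0.39 (adjusted p = 0.0981). Insulin signalling had a median of 0.20 over 20 genes, with Irs1 and Insr, the substrate and the receptor, at 0.49 ± 0.17 and 0.56 ± 0.20. The adipocyte and macrophage lists were on opposite sides on the same arrays, and the part that the share of other cells had in these values was not tested.

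Genes that make fatty acids had similar median responses in both genotypes, while single members ran both ways. Their interactions ran from -1.32 to 1.27. At an unadjusted p under 0.05 there were 4 positive and 3 negative of the 17, beside 17.5% of all genes in either direction. The median HFD difference was -0.73 in KO and -0.65 in WT, with 8 of 17 falling and 0 rising in each genotype, beside 3.54% of all genes falling in KO and 12.3% in WT, and the median interaction was -0.12. Elovl6, the elongase that makes stearate, read 8.59, 9.32 and 9.33 in KO on HFD and 11.21, 11.16 and 10.19 in KO on chow, against 8.92, 9.29 and 9.25 in WT on HFD and 9.76, 9.76 and 9.33 in WT on chow. KO minus WT was -0.078 on HFD and 1.24 on chow, where the KO arrays were above all others. On HFD it fell by 1.78 in KO (adjusted p = 0.0116) and in WT the difference was -0.46 (adjusted p = 0.273), an interaction of -1.32 ± 0.39 with an adjusted p of 0.13. Me1 and Slc25a1, malic enzyme and the mitochondrial citrate carrier, had -0.72 ± 0.20 and -0.61 ± 0.19, while Mlxipl, the carbohydrate response factor ChREBP, had 0.64 ± 0.19. Cholesterol synthesis had a median of -0.61, with 18 of 19 genes negative. On HFD 1 rose and 2 fell in KO, and 7 rose and 1 fell in WT, where 2.8% and 3.54% of all genes did so in KO, against 11.8% and 12.3% in WT. Fdps, which makes farnesyl diphosphate, read 8.44, 9.06 and 8.79 in KO on HFD and 9.27, 9.31 and 9.08 in KO on chow, against 9.17, 9.69 and 9.74 in WT on HFD and 9.15, 9.05 and 8.55 in WT on chow, with -0.46 in KO and 0.62 in WT. Tm7sf2 and Dhcr7, both sterol reductases, had -1.12 ± 0.27 and -1.21 ± 0.30, and Fdft1, squalene synthase, was the exception at 0.49 ± 0.14. Without WT on HFD replicate 1, 6 of the 19 passed as negative, beside 5.79% of all genes.

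Of mitochondrial lists, the TCA cycle had a median of 0.13 with 17 of 20 genes positive, and the respiratory chain 0.14 with 17 of 23 positive. On HFD 3 TCA cycle genes fell in KO, against 15 in WT, and 3 respiratory chain genes fell in KO, against 14 in WT, beside 3.54% of all genes in KO and 12.3% in WT. The medians of both lists were 0.064 and 0.056 without WT on HFD replicate 2. Fatty acid oxidation had a median of 0.072 over 19, with 0 falling in KO, against 6 in WT. Cox8b, a cytochrome oxidase subunit of brown fat and muscle, was an exception at -1.24 ± 0.34, with -0.96 in KO and 0.28 in WT. Genes that follow the size of the fat mass had a median of 0.24 over 17, with 7 rising and 0 falling on HFD in KO, against 7 and 3 in WT. Over all genes 2.8% rose and 3.54% fell in KO, against 11.8% and 12.3% in WT. The median of this list was 0.085 without WT on HFD replicate 2. Lep, the gene of leptin, differed on HFD by 0.78 in KO and 0.88 in WT, an interaction of -0.093 ± 0.18. Peg3 and Sfrp5, an imprinted zinc finger gene and a secreted Wnt antagonist, differed by 2.37 and 2.19 in KO, against 2.04 and 1.90 in WT. Nnat, the imprinted gene of neuronatin, had 1.85 ± 0.51, with 0.44 in KO and -1.41 in WT.

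Of 17 clock genes, 11 had positive interactions and 6 negative ones, with a median of 0.28. The median was 0.13 without WT on HFD replicate 2, and 0.18 and 0.18 without KO on chow replicate 3 and WT on chow replicate 2. Per2 and Per3, period proteins that repress the clock, had 0.91 ± 0.17 and 1.22 ± 0.23, and Dbp, a partner of Tef, had 0.67 ± 0.15. Arntl, the gene of BMAL1, which activates the period genes and peaks in antiphase to them, had -0.94 ± 0.27, the most negative of the 6. Per3 read 8.52, 7.87 and 8.002 in KO on HFD and 8.44, 8.72 and 8.75 in KO on chow, against 6.96, 6.89 and 7.15 in WT on HFD and 8.68, 8.56 and 8.93 in WT on chow, so that the 3 WT arrays on HFD were lowest. On HFD 1 rose and 4 fell in KO, against 2 and 12 in WT, where 3.54% of all genes fell in KO and 12.3% in WT. Without WT on HFD replicate 1, 6 passed as positive and 0 as negative, beside 4.54% and 5.79% of all genes. The hour of collection is not in the labels, and its part in these values was not tested. The D-box, TTATGTAA on either strand, through which Tef and Dbp act, was found in the promoter of 1 of the 15 clock genes with one in the table (6.67%), Per3, and in 156 of 15613 genes (0.999%), and the E-box CACGTG in 5 of 15 (33.3%) and in 1483 genes (9.5%). The promoter of Per3 (chr4:151044616-151044915, minus strand, GRCm38.p6) is shown because it holds the D-box, in capitals.
Per3: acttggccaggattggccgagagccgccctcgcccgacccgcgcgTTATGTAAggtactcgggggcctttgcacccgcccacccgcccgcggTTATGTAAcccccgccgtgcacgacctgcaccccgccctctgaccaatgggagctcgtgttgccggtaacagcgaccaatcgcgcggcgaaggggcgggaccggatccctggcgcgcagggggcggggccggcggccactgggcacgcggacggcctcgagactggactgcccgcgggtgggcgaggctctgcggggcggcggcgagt

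Endothelial markers had a median of 0.34, with 16 of 17 positive and 0 changing on HFD in either genotype. Over all genes 2.8% rose and 3.54% fell in KO, against 11.8% and 12.3% in WT. The endothelial median was 0.16 when WT on HFD replicate 2 was left out. Tek, the angiopoietin receptor, had 0.50 ± 0.20, and Egfl7, an angiogenic factor, 0.55 ± 0.25. Smooth muscle, mesothelial, skeletal muscle, neutrophil and epididymal markers had medians between -0.072 and 0.14, and the mesothelial median ran from -0.12 to 0.43 as single arrays were left out. Single members lay further out: S100a8 of the neutrophil list at -1.09 ± 0.23, Pdgfrb of smooth muscle at -0.65 ± 0.15 and Pvalb of skeletal muscle at -1.35 ± 0.43. In these 3 lists 8, 8 and 4 members were positive and 7, 6 and 8 negative. Cytosolic ribosomal proteins, used as a group with little regulation, had a median of -0.081, with Rpl23 at -0.24 ± 0.12. Among partners and relatives of AHNAK, Anxa2 and S100a10, which bind it, had -0.024 ± 0.13 and -0.049 ± 0.10. Ahnak2, a relative of AHNAK, had -1.08 ± 0.31, Myof, the membrane repair protein myoferlin, -1.15 ± 0.33, and Actn1, an actin crosslinker, -0.88 ± 0.23. On HFD these 3 differed in KO by 0.33, -0.12 and 0.15, and rose in WT by 1.42, 1.02 and 1.04. Plcg1, a phospholipase C that AHNAK activates, had 0.44 ± 0.18.

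The remaining lists had medians of 0.29 for secreted adipokines, 0.17 for triglyceride synthesis and the lipid droplet, -0.19 for thermogenic genes and -0.17 for stromal progenitor markers. Stress and signalling lists had -0.13 for the unfolded protein response, 0.16 for immediate early and heat shock genes, -0.052 for the interferon response and 0.091 for TGF-beta and BMP signalling. Leaving out single arrays moved these medians by over 1.5 times in places, from 0.16 to 0.41 for adipokines, 0.11 to 0.31 for triglyceride synthesis, -0.30 to -0.12 for stromal markers, -0.20 to -0.084 for the unfolded protein response and 0.042 to 0.23 for immediate early genes. In the unfolded protein response 0 genes rose and 0 fell on HFD in KO, against 13 and 1 in WT. Over all genes 2.8% rose and 3.54% fell in KO, against 11.8% and 12.3% in WT. Without WT on HFD replicate 1, 0 of the 22 passed the interaction test. Of all genes 4.54% passed as positive and 5.79% as negative in that setting, so few of 22 would pass at those shares.

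**Figure D5:**
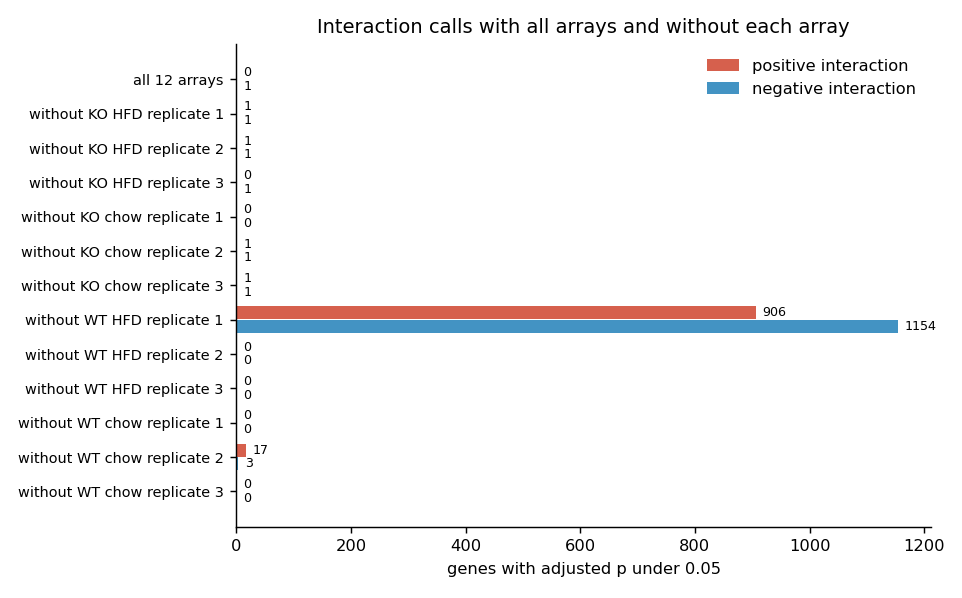
Number of genes that passed the interaction test (x axis, linear) with all 12 arrays in the top row and without each array in the rows below, as bars for positive and negative interactions. Leaving out WT on HFD replicate 1 gives 906 and 1154 genes, and leaving out any other array gives at most 17 and 3.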

How the data were processed

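Total RNA of white adipose tissue was hybridised to 12 1-colour arrays, per the labels' protocols. The submitters' processing notes name affy, with no version; how background was corrected and arrays were scaled is not stated there. The authors deposited 1 table of log2 values with 34760 rows; the base was inferred from the range, 2.09 to 14.2, and array medians lie between 5.78 and 5.92. The table holds no detection calls, so nothing was set against background, and the number of arrays limits the precision. Of its rows, 21640 have 1 symbol in the platform annotation, 1321 have several and 11799 are unnamed here. The row with the highest mean stood for a gene, which left 19937 genes.

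Values were used as deposited. The 4 group means were fitted with limma 3.58.1 (R 4.3.3) over the 12 arrays, with 8 residual degrees of freedom and eBayes, and the interaction was a contrast of the 4 means. Tests are two-sided, with Benjamini-Hochberg adjustment over all genes at 0.05. The fit was tested on simulated data. The comparison, the gene lists and the rule for named genes were chosen with earlier results of these data known. That rule takes up to 15 passing genes per direction, filled to 10 by smallest p, genes with opposite passing diet effects, genes changed in KO alone, and the 4 members of each list with the smallest p; predicted genes and small RNAs are passed over. Other members (Timd4, Lyve1, Cd163, Cd86, Cd36, Lpl, Apoe, Acp5, Cd3d, Cd3e, Ctsd, Mki67, Tyms, Cdc20, Arntl, Lep, Peg3, Sfrp5, Anxa2, S100a10) were named after their values were seen. Promoters came from a RefSeq table of GRCm38.p6.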

Additional observations from a re-analysis of the deposited data

Results flagged for a closer look

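Ppfibp2, with an interaction of -1.12, passed the test of a difference between the diet responses of KO and WT (limma, adjusted p = 0.014). For 17 other named genes all 9 HFD minus chow differences between single arrays ran one way in KO and all 9 the other way in WT, as they did for 220 of all genes, and none of the 17 passed that test. Among genes chosen for a small p, the interactions were 2.08 for Arrdc3, 0.70 for Ddx17, 1.24 for Sox7, 1.50 for Bckdhb, 0.63 for Sult5a1, 0.61 for Zbtb5, 0.92 for Ccnl2, 0.84 for Tiparp and -2.23 for Hephl1. Among list members they were -0.65 for Cx3cr1, 0.94 for Plin4, 1.85 for Nnat, 1.62 for Pck1, 0.52 for Lipe, 0.90 for Mccc2, -1.07 for Fdps and 0.34 for Klf4, a transcription factor of the immediate early list.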

How the results depend on the processing

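With all arrays 0 genes passed with a positive interaction and 1 with a negative one. The positive and negative counts were 40 and 18 with dim genes left out, 1395 and 1424 with array weights, and 2 and 1 over all rows of the table. They were 180 and 157 at an adjusted p under 0.10, a threshold chosen after seeing the data. Counts with array weights are not reliable, since WT on HFD replicate 3 received a weight of 19.99 and dominated its group. Leaving out 1 array at a time gave 0 to 906 positive and 0 to 1154 negative genes, the highest of both without WT on HFD replicate 1. The diet counts, 1264 genes in KO and 4802 in WT, were 2137 and 9985 with array weights, and in KO 837 over all rows. Leaving out 1 array gave 62 to 1509 genes in KO and 3072 to 5285 in WT, the lowest without KO on HFD replicate 3 and WT on HFD replicate 3. The causes were not tested. With the replicate number as a replicate block, 0 genes passed in either direction (limma, lowest adjusted p 0.0681, with 3267 genes at an unadjusted p under 0.05) and 740 passed the diet test in KO. Same-numbered arrays correlated between -0.41 and 0.38 over 18 pairs, so the numbers were not taken to pair samples. Of 157 named genes, Upk1b, a mesothelial marker, changed sign, with -0.055 to 0.69 when 1 array was left out. No other named gene changed sign under any setting run. Quantile normalization, median centring, group weights, a variance trend and averaged rows each left 0 positive and 1 negative gene. With 3 arrays a group, precision is limited, and signal over background could not be assessed.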
